A study of Mus musculus with 8 samples.

Results

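The genes described here are 7 genes of heritable enamel defects or of the *Fam20* family that code for no protein of the enamel matrix: *Fam20a*, *Fam20b*, *Fam20c*, *Relt*, *Itgb6*, *Cnnm4* and *Fam83h*. They were taken by name from the 23358 rows of the deposited expression table, and all 7 were found, each on 1 row. Expression was measured by RNA-seq in tissues dissected from the incisors of C57BL/6 mice at 4 weeks of age, with sexes not told apart. CLH, the cervical loop head, holds the dental epithelial stem cells at the growing end of the incisor, and CLT, the cervical loop tail, holds their progenies. The *Med1* cKO mice carried a floxed *Med1* allele (exons 8 to 10) and Cre recombinase under the *Krt14* promoter, which is active in epithelial cells of tooth and skin alike, and Ctrl mice were littermates without Cre. Each of the 4 groups (Ctrl CLH, cKO CLH, Ctrl CLT and cKO CLT) had 2 libraries of pooled tissues, and the study describes 2 litters. Values are RPKM, read counts corrected for the length of the gene and the total reads of the library. Those totals ran from 26591613 to 34420180 reads, and each of the 7 genes had at least 102 reads in every library.

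Enamel is laid down by ameloblasts, which first secrete a protein matrix and then remove it while mineral crystals thicken. Amelogenesis imperfecta arises when genes of the matrix proteins fail, but also when the cells cannot phosphorylate, anchor or transport what the mineral needs. FAM20C is the Golgi kinase that phosphorylates most secreted phosphoproteins, among them those of enamel and dentin, and FAM20A is a pseudokinase that binds FAM20C and raises its activity. FAM20B, the other member of the family, acts on a sugar instead: it phosphorylates xylose in the linker that joins glycosaminoglycan chains to proteoglycans. RELT is a receptor of the tumour necrosis factor receptor superfamily, integrin beta 6 pairs with integrin alpha v to activate latent TGF-beta, and CNNM4 is a magnesium transporter. FAM83H binds casein kinase 1 and is tied to the keratin filament network of epithelial cells.

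In cKO CLT, the levels of 5 of the 7 genes were far below those of Ctrl CLT, *Fam20b* stayed close to its Ctrl level, and *Fam83h* stood above it. *Fam20c*, *Fam20a* and *Itgb6* fell past the threshold, whereas *Relt*, *Cnnm4* and *Fam83h*, for which the Ctrl CLT libraries lay farther apart, did not pass it. In CLH the same genes differed between genotypes by 1.45-fold at most, and none passed. All 7 genes reached 1 RPKM in 2 or more of the 8 libraries, which was the filter on low values, and so were among the 14148 genes tested.

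**Figure D1:**
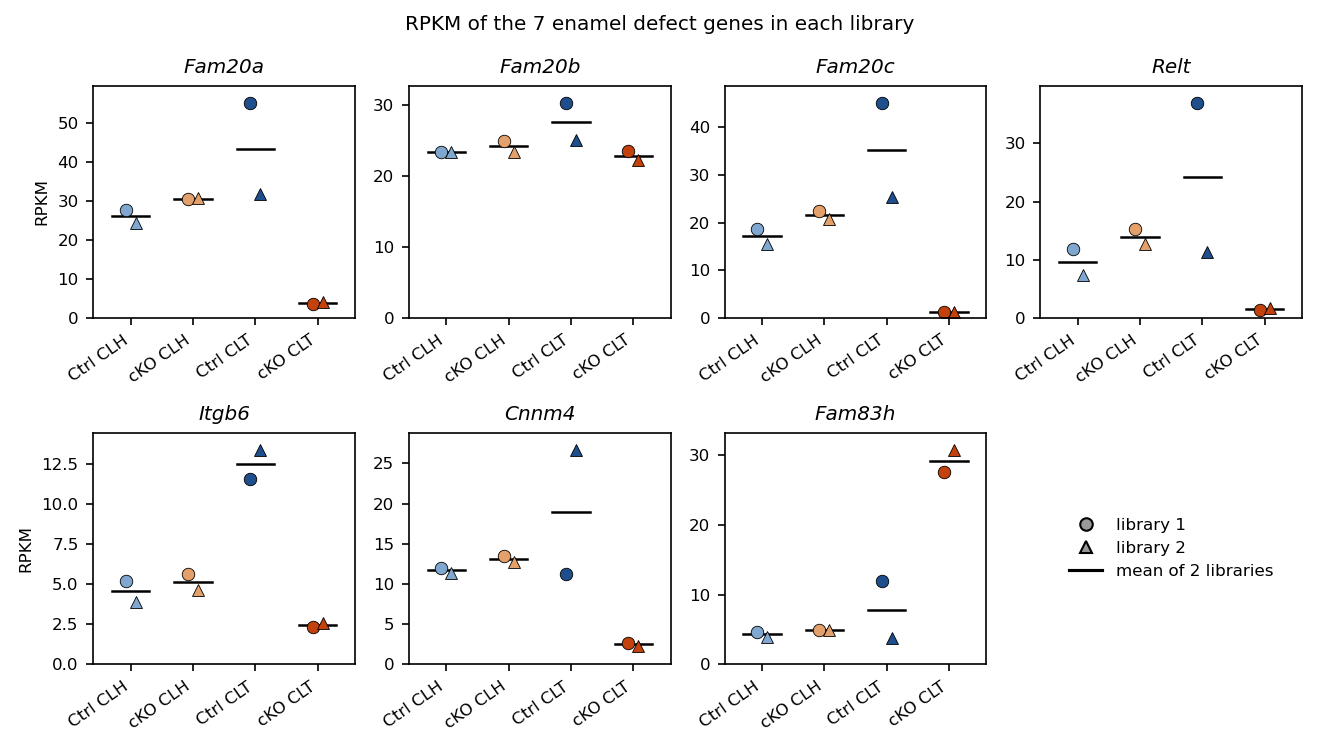
RPKM (vertical axes, each from 0) of the 7 genes in the 8 libraries, by group. Circles are library 1, triangles library 2, and bars the mean of the 2. *Fam20a*, *Fam20c*, *Relt*, *Itgb6* and *Cnnm4* were lowest in cKO CLT, *Fam83h* was highest there, and *Fam20b* lay between 22.3 and 30.3 in all 8 libraries.

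*Fam20c* (chr5:138755081-138810063 in mm10, plus strand) read 18.7 and 15.5 RPKM in the CLH and 45.0 and 25.3 in the CLT of Ctrl mice. In cKO mice it read 22.5 and 20.7 in CLH, but 1.26 and 1.25 in CLT. Both cKO CLT libraries lay far below all others, on 106 and 102 reads, and the groups did not overlap. The mean level in Ctrl CLT exceeded that of 87.1% of the tested genes and the mean in cKO CLT that of 12.3%. The log2 fold change of RPKM + 1, cKO against Ctrl, was -3.95 ± 0.32 (SE, n = 2 libraries a group; limma, adjusted p = 0.037), and the mean RPKM was 28.0-fold lower.

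*Fam20a* (chr11:109672926-109722256, minus strand), the gene of the pseudokinase partner, followed the same course. In Ctrl mice its RPKM was 27.7 and 24.5 in CLH, then 55.2 and 31.9 in CLT. In cKO mice it was 30.6 and 30.8 in CLH, then 3.66 and 4.21 in CLT. The cKO CLT libraries were again the lowest of the 8 with no overlap. The log2 fold change in CLT was -3.12 ± 0.31 (limma, adjusted p = 0.045), from a mean of 43.5 to one of 3.94 RPKM, or 11.1-fold. Over the 8 libraries, and among 9593 genes with a mean RPKM of at least 5, the gene whose log2(RPKM + 1) was most like that of *Fam20a* was *Fam20c* (Pearson r = 0.999), and *Fam20a* came first for *Fam20c* likewise. These r, and those given below, describe 8 libraries whose values are set largely by the cKO CLT pair.

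*Fam20b* (chr1:156678571-156718910, minus strand) did not share this course. Ctrl mice had 23.4 and 23.4 RPKM in CLH, with 30.3 and 25.1 in CLT. For cKO mice the values were 25.0 and 23.4 in CLH, with 23.5 and 22.3 in CLT. Both cKO CLT libraries lay under the Ctrl CLT libraries, and cKO CLT library 2 was the lowest of the 8, just below the CLH libraries. Between genotypes in CLT it differed by -0.26 ± 0.16 on the log2 scale (limma, adjusted p = 0.31), with a 95% confidence interval from -0.71 to 0.19, so that a fall as large as that of *Fam20a* or *Fam20c* lay outside the interval. An unclassified transcript on the opposite strand, *Gm19918*, shares exon sequence with *Fam20b* in GENCODE M21, and its reads could not be told apart without strand.

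The 3 *Fam20* genes thus offered a pair that moved together and a relative that did not, and the bases before their start sites are shown for that comparison. RefSeq promoter sequences (GRCm38.p6) were matched by symbol for 6 of the 7 genes, and *Fam83h* was the other. The windows are the 250 bases before the RefSeq start: chr11:109722239-109722488 for *Fam20a* (minus strand), chr5:138754831-138755080 for *Fam20c* (plus strand) and chr1:156718911-156719160 for *Fam20b* (minus strand). The *Fam20a* window overlaps the start of the gene as placed in the expression table, where it lies at 109722256. Those of *Fam20b* and *Fam20c* adjoin their genes. Capitals mark the GC box GGGCGG and the CCAAT box CCAAT on either strand.
Fam20a: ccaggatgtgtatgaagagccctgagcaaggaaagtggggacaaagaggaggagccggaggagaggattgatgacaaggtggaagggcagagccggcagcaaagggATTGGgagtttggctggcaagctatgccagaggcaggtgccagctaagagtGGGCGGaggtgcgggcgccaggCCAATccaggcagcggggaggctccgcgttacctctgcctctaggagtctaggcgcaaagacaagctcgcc
Fam20c: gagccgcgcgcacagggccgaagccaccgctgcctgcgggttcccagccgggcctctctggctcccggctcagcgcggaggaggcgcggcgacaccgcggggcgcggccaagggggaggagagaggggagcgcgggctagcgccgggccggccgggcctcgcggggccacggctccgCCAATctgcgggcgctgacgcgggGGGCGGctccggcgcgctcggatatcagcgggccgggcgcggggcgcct
Fam20b: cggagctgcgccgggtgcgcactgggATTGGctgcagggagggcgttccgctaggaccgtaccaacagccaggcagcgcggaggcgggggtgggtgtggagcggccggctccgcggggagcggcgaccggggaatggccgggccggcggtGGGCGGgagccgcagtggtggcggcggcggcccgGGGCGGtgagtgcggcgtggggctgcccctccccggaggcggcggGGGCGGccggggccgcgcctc
The *Fam20a* window held 1 GC box and 2 CCAAT boxes, that of *Fam20c* 1 of each, and that of *Fam20b* 3 GC boxes and 1 CCAAT box. Of all 32851 windows of this length, 32.7% held a GC box and 33.8% a CCAAT box. The *Fam20c* and *Fam20b* windows had the same share of G and C, 81.2%, against 61.2% for *Fam20a*. The RUNX core TGTGGT (14.0% of all windows), the AP-1 site TGANTCA (6.75%), the TATA box TATAAA (12.4%) and the homeodomain core TAATTA (4.84%) were in none of the windows of the 6 genes. The E-box CANNTG (66.2%) occurred once in *Fam20a* and not in *Fam20b* or *Fam20c*. Motifs were searched on both strands, and a match is a string of letters, not a bound site.

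*Relt* (chr7:100845848-100863413, minus strand) was measured at 11.9 and 7.30 RPKM in CLH of Ctrl mice and at 36.9 and 11.4 in their CLT. In cKO mice it was at 15.2 and 12.7 in CLH, against 1.33 and 1.77 in CLT. Both cKO CLT libraries lay below all others, but the Ctrl CLT libraries differed from each other by 3.24-fold. The log2 fold change of -3.09 ± 0.59 (limma, adjusted p = 0.072; 95% confidence interval -4.73 to -1.45) did not pass the threshold, although the mean RPKM was 15.6-fold lower. Against Ctrl CLT library 2 alone it was 7.33-fold lower, and against library 1 it was 23.8-fold lower.

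*Itgb6* (chr2:60598292-60722603, minus strand) was the member with the most even Ctrl CLT libraries. The Ctrl mice had 5.21 and 3.92 RPKM in CLH against 11.6 and 13.4 in CLT. The cKO mice had 5.64 and 4.65 in CLH against 2.35 and 2.57 in CLT. The Ctrl CLT libraries were the highest of the 8 and the cKO CLT libraries the lowest. In CLT it changed by -1.96 ± 0.17 on the log2 scale (limma, adjusted p = 0.040), a 5.09-fold lower mean.

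*Cnnm4* (chr1:36471597-36508776, plus strand) stood at 12.0 and 11.4 RPKM in CLH of Ctrl mice, with 11.2 and 26.7 in CLT. Its values in cKO mice were 13.5 and 12.8 for CLH, with 2.63 and 2.35 for CLT. The cKO CLT libraries lay below all others, and here Ctrl CLT library 2 was the higher one, by 2.39-fold. The log2 fold change of -2.40 ± 0.45 (limma, adjusted p = 0.069; 95% confidence interval -3.63 to -1.16) missed the threshold. The annotated microRNA gene *Gm47280* lies within its exons on the same strand.

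*Fam83h* (chr15:76001092-76014336, minus strand) was the only one of the 7 with a higher mean in cKO CLT than in Ctrl CLT. Its RPKM in Ctrl mice was 4.65 and 3.92 for CLH, and 11.9 and 3.76 for CLT. In cKO mice it was 4.92 and 4.93 for CLH, and 27.5 and 30.7 for CLT. The cKO CLT libraries lay above all others, and Ctrl CLT library 1 stood between them and the rest. The log2 fold change of 1.94 ± 0.53 (limma, adjusted p = 0.096; 95% confidence interval 0.49 to 3.40) did not pass. The mean in cKO CLT was 7.74-fold higher than in Ctrl CLT library 2 and 2.45-fold higher than in library 1.

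Counted over the 7 genes, 3 were lower and 0 higher in cKO CLT at an adjusted p under 0.05, where 1.68% of the 14148 tested genes were lower and 0.0777% higher. At an unadjusted p under 0.05 the counts were 6 of 7 and 5116 of 14148. The groups did not overlap for any of the 7 genes, with 6 lower and 1 higher, but with 2 libraries a group this held for 35.1% of all tested genes on the lower side and 37.2% on the higher side. The median log2 fold change of the 7 genes was -2.40, beside -0.01 over all genes tested. By voom, run on the reads recovered from the RPKM, 0 of the 7 were called, beside 0.127% of all tested genes. The count rested on single libraries, and so did that over all genes. Without Ctrl CLT library 1, 5 of the 7 were lower and 1 higher, beside 38.1% and 31.4% of all tested genes. Without Ctrl CLT library 2, 6 were lower and 1 higher, beside 23% and 29.1%. Without either cKO CLT library it was 0 of 7, beside 0.0777%. The direction of each of the 7 was kept in these fits. With 1 Ctrl library left, its spread was taken to equal that of the cKO pair.

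**Figure D2:**
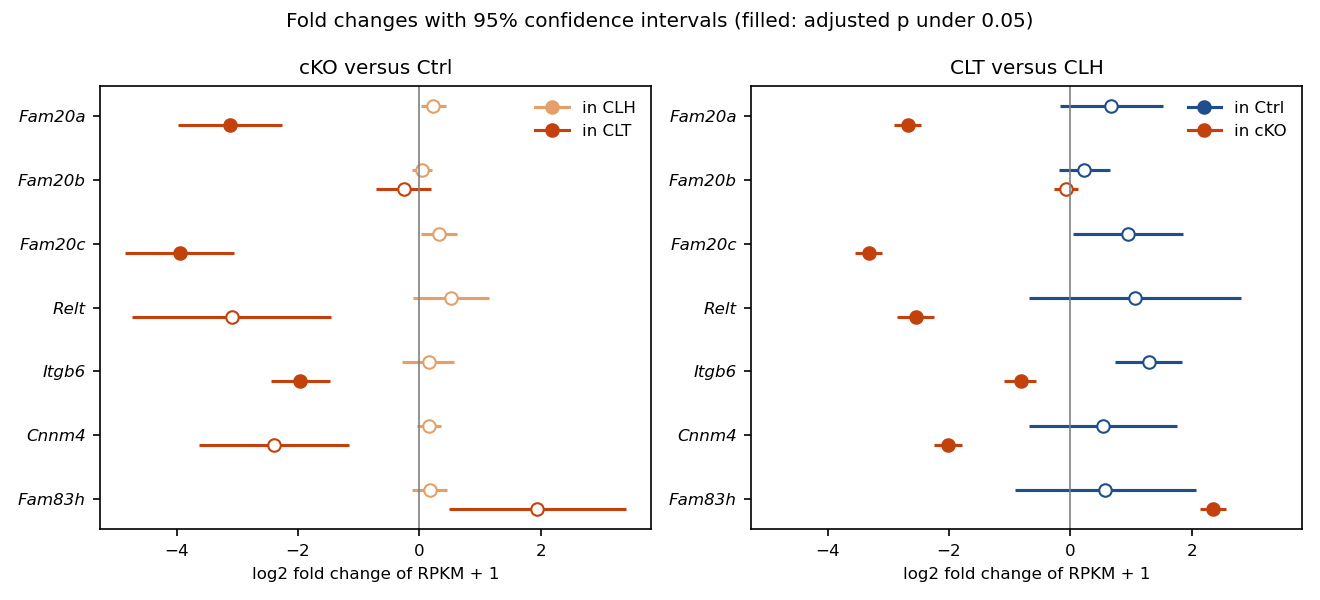
Log2 fold changes of RPKM + 1 (horizontal axes) of the 7 genes with 95% confidence intervals from limma, for cKO versus Ctrl within CLH and CLT (left) and for CLT versus CLH within Ctrl and cKO (right). Filled points had an adjusted p under 0.05: *Fam20a*, *Fam20c* and *Itgb6* on the left, and all but *Fam20b* for CLT versus CLH in cKO on the right.

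In CLH, where the stem cells reside, none of the 7 genes was called (limma, lowest adjusted p = 0.69), and 0% of all genes tested were called. At an unadjusted p under 0.05 there were 2 of 7, *Fam20a* and *Fam20c*, among 1027 of 14148 genes, and voom called 0. All 7 log2 fold changes were above 0, from 0.04 for *Fam20b* (95% confidence interval -0.12 to 0.21) to 0.52 for *Relt* (-0.10 to 1.15), with a median of 0.17 beside -0.01 over all genes. The groups did not overlap for 5 of the 7, with cKO higher in each, which held for 19.9% of all tested genes. The intervals of *Fam20a* (0.02 to 0.44), *Fam20c* (0.03 to 0.61) and *Cnnm4* (-0.04 to 0.36) leave no room for a fall like that in CLT.

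Whether the cKO effect differed between the tissues was asked with an interaction term fitted to all 8 libraries. It passed for 5 of the 7 genes, all with the lower effect in CLT, beside 9.58% of the tested genes on the lower side and 8.05% on the higher. The log2 differences were -4.27 ± 0.37 for *Fam20c* (limma, adjusted p = 0.0030) and -3.35 ± 0.34 for *Fam20a* (adjusted p = 0.0050). They were -2.11 ± 0.24 for *Itgb6* (adjusted p = 0.0063), -3.61 ± 0.72 for *Relt* (0.026) and -2.55 ± 0.50 for *Cnnm4* (0.024). *Fam83h* (1.77 ± 0.60, adjusted p = 0.086) and *Fam20b* (-0.30 ± 0.16, adjusted p = 0.21) did not pass. This fit sets 1 spread for all groups, while the Ctrl CLT pair was the least alike (median difference between its libraries 0.404 on the log2 scale, against 0.0922 to 0.113 in the other groups). Without any one CLH library, or without either cKO CLT library, *Relt* and *Cnnm4* lost their call (adjusted p 0.085 to 0.12), and *Itgb6* did so without cKO CLT library 1 (0.051). Calls numbered 6 of 7 without Ctrl CLT library 1 and 7 of 7 without library 2, where 63.1% and 46.6% of all tested genes passed.

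Along the Ctrl incisor all 7 means were higher in CLT than in CLH, and none of the differences passed (limma, 0 of 7, beside 0.00707% of all tested genes). At an unadjusted p under 0.05 there were 2 of 7, *Itgb6* and *Fam20c*, among 1860 genes, and voom called 0. *Itgb6* differed most, by 1.29 ± 0.20 on the log2 scale (adjusted p = 0.30; 95% confidence interval 0.74 to 1.83). *Fam20a*, *Fam20b*, *Fam20c* and *Itgb6* did not overlap, which held for 15.2% of all tested genes on the higher side. For the others the Ctrl CLT libraries went apart: *Fam83h* stood at -0.15 without library 1 and at 1.29 without library 2, and *Cnnm4* at 1.13 and -0.06. The number past the threshold was 1 of 7 without Ctrl CLT library 1 (*Cnnm4*), beside 3.31% of all tested genes, and 6 of 7 without library 2, beside 53.3%. Over all genes the median log2 fold change was -0.13 here, and median-of-ratios scaling moved it by 0.14.

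Within the cKO mice, CLT differed from CLH for 6 of the 7 genes. *Fam20c* fell by 3.32 on the log2 scale (SE 0.10; limma, adjusted p = 1.8e-08), *Fam20a* by 2.68 and *Relt* by 2.55. *Cnnm4* fell by 2.02 and *Itgb6* by 0.82, while *Fam83h* rose by 2.34 (SE 0.09; adjusted p = 1.1e-07), or 5.92-fold in the mean RPKM. *Fam20b* stood at -0.07 ± 0.09 (adjusted p = 0.46; 95% confidence interval -0.27 to 0.13), and at 0.14 with median-of-ratios scaling. These calls stand in a comparison in which 45.1% of all tested genes were lower in CLT and 28.9% higher, with 4084 higher and 6384 lower as deposited and 5270 higher and 4884 lower after median-of-ratios scaling, which moved the median of all genes from -0.18 to 0.02. The comparison uses the same cKO CLT libraries as the genotype comparison in CLT, so the direction of the 7 genes in it adds no separate evidence.

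The libraries of dissected tissue held RNA of marker genes of several cell types, and their levels differed between groups. Which cells this RNA came from was not tested. The basal keratins *Krt14* and *Krt5* were high in all 8 libraries. The summed RPKM of 4 secretory ameloblast markers (*Amelx*, *Ambn*, *Enam* and *Mmp20*) was 12477 to 14298 over the CLH libraries, 79097 and 30269 for Ctrl CLT, but 10.6 and 5.83 for cKO CLT. Of 5 odontoblast and bone markers, *Dspp* read 543 and 644 in the Ctrl CLT pair against 0.145 and 0.174 in the cKO CLT pair, and *Ibsp* had 0 reads in both cKO CLT libraries. *Col1a1* of the same list fell less, from 1067 and 1335 RPKM in Ctrl CLT to 376 and 472 in cKO CLT (limma, adjusted p = 0.062). The 5 hair markers summed to 9.80 RPKM at most in CLH and Ctrl CLT library 2, to 2693 in Ctrl CLT library 1, and to 7897 and 8679 in the cKO CLT pair. Fewer cells of a type and less RNA per cell cannot be told apart in such bulk samples, and the part of any of this in the levels of the 7 genes was not tested.

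**Figure D3:**
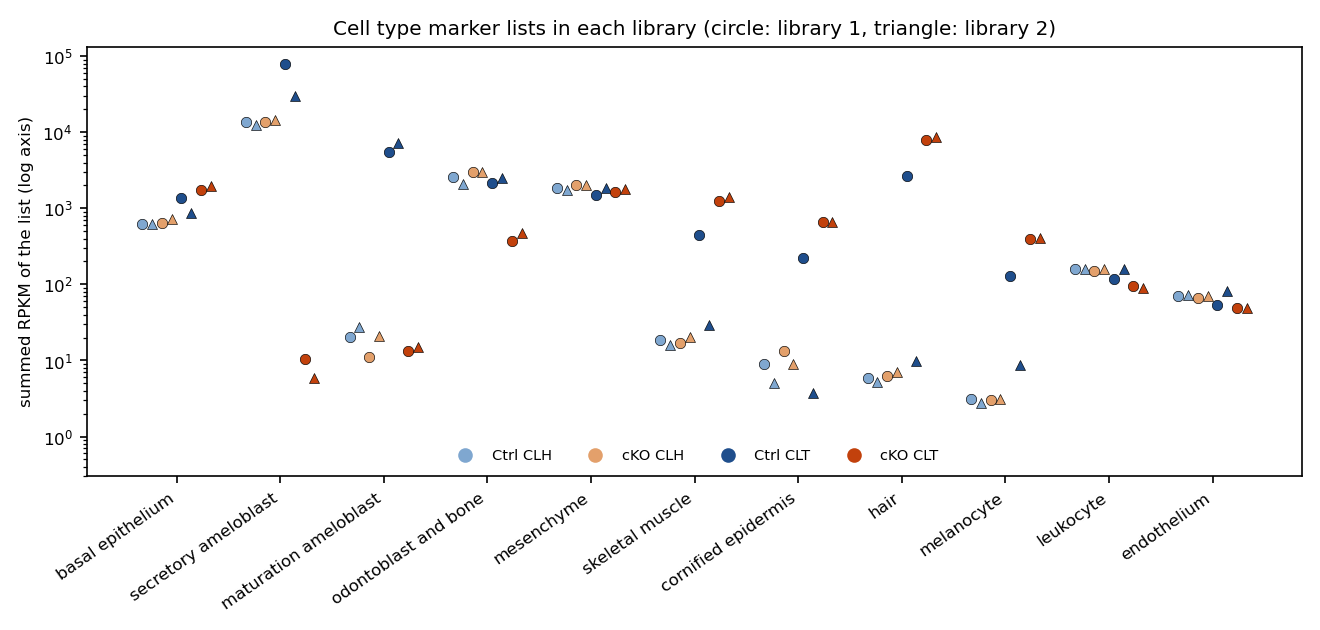
Summed RPKM (log axis) of 11 lists of cell type markers in each library; circles are library 1, triangles library 2. Ameloblast and odontoblast markers were lowest in cKO CLT or in CLH, and skeletal muscle, epidermis, hair and melanocyte markers were high in cKO CLT and intermediate in Ctrl CLT library 1.

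Ctrl CLT library 1 stood apart from its partner in the same way. Over 19 markers of skeletal muscle, cornified epidermis, hair and melanocytes, its RPKM was 24.1% to 39.1% of the cKO CLT mean (median 32.3%), whereas Ctrl CLT library 2 was at 0% to 6.01% (median 0.686%). *Fam83h* in Ctrl CLT library 1 was at 40.8% of the cKO CLT mean and in library 2 at 12.9%. *Relt*, *Fam20a* and *Fam20c*, which were low in cKO CLT, were by contrast 3.24-fold, 1.73-fold and 1.78-fold higher in Ctrl CLT library 1 than in library 2, as were the summed secretory ameloblast markers. *Cnnm4* and *Itgb6*, low in cKO CLT as well, went the other way, 2.39-fold and 1.15-fold higher in library 2, as did the summed maturation ameloblast markers (5540 RPKM in library 1 and 7215 in library 2). Those markers did not all go this way: *Odam* read 871 RPKM in library 1 and 3671 in library 2, but *Amtn* read 4429 and 3246. *Med1* itself, the targeted gene, read 7.71 and 9.12 RPKM (CLH) with 4.83 and 8.71 (CLT) for Ctrl mice, against 7.10 and 7.03 (CLH) with 9.15 and 8.96 (CLT) for cKO mice. Its total level was thus not lower in the CLT libraries labelled as knockout, and the 2 groups of CLH libraries differed by -0.22 on the log2 scale (adjusted p = 0.71). The floxed exons are a small part of its transcript, and exon values were not analysed here.

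Further genes of the pathways of the 7 were described by list, without a test of the list as a whole. For the list counts of cKO against Ctrl in CLT, 1.68% of all tested genes were lower and 0.0777% higher by limma, and voom called 0.127%. At an unadjusted p under 0.05 there were 5116 of 14148. List counts without Ctrl CLT library 1 leave 1 Ctrl library, and those without any other library are not given. Among 18 tested genes of other enamel defects outside the matrix, 6 fell and 0 rose in cKO CLT by limma and 1 was called by voom, with a median log2 fold change of -1.07 beside -0.01 over all genes. *Acpt*, which codes for an acid phosphatase, changed by -7.11 ± 0.68 (limma, adjusted p = 0.043), and *Slc13a5*, which codes for a citrate transporter, by -4.73 ± 0.21 (adjusted p = 0.020). *Lamb3* (-3.75), which codes for a laminin chain of the basement membrane, also fell. The highest value was that of the claudin gene *Cldn19* (0.87, adjusted p = 0.083). Without Ctrl CLT library 1, 12 of the 18 were lower and 1 was higher, where 38.1% of all tested genes were lower and 31.4% higher.

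The genes whose proteins FAM20C phosphorylates, or their relatives, were the lowest list. Of 9 tested genes of secreted calcium-binding phosphoproteins, 8 fell and 0 rose by limma and 2 were called by voom, with a median of -9.00. *Amelx* (-12.31 ± 0.57, limma, adjusted p = 0.020) and *Ambn* (-12.30) code for the main enamel matrix proteins, *Enam* (-9.67) for the largest of them and *Odam* (-9.46) for a protein of maturing ameloblasts. *Dmp1*, of dentin and bone, changed least (-4.06 ± 0.18, adjusted p = 0.020), and *Ibsp* was the gene that did not pass (adjusted p = 0.051). The cKO CLT libraries in which *Fam20c* was low were thus low in these 8 genes too.

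The other secretory pathway kinases did not pass in CLT (0 of 8 by limma and 0 by voom, with 5 at an unadjusted p under 0.05), with a median of -0.84. *Pkdcc*, a secreted tyrosine kinase gene, was the lowest (-3.24 ± 0.49, adjusted p = 0.062) and *Fam198a* the highest (0.79). Against cKO CLH, 6 of the 8 were lower and 2 higher in cKO CLT by limma, beside 45.1% and 28.9% of all tested genes. The largest of these falls were those of *Pkdcc* (-4.45), *Fam69b* (-2.26), *Fam69c* (-2.23) and *Fjx1* (-1.37). Around FAM20B, 1 of 10 tested genes of the glycosaminoglycan linker fell (1 call by voom too), with a median of -0.40. It was *Acpl2*, the gene of the phosphatase that removes the phosphate FAM20B adds (-2.53 ± 0.14, limma, adjusted p = 0.022), from 40.7 and 40.0 RPKM in the Ctrl libraries to 6.31 and 6.04 in the cKO libraries. In the same libraries the kinase gene *Fam20b* had -0.26. *Csgalnact1*, which starts chondroitin sulfate chains, was the highest (1.10, adjusted p = 0.10).

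**Figure D4:**
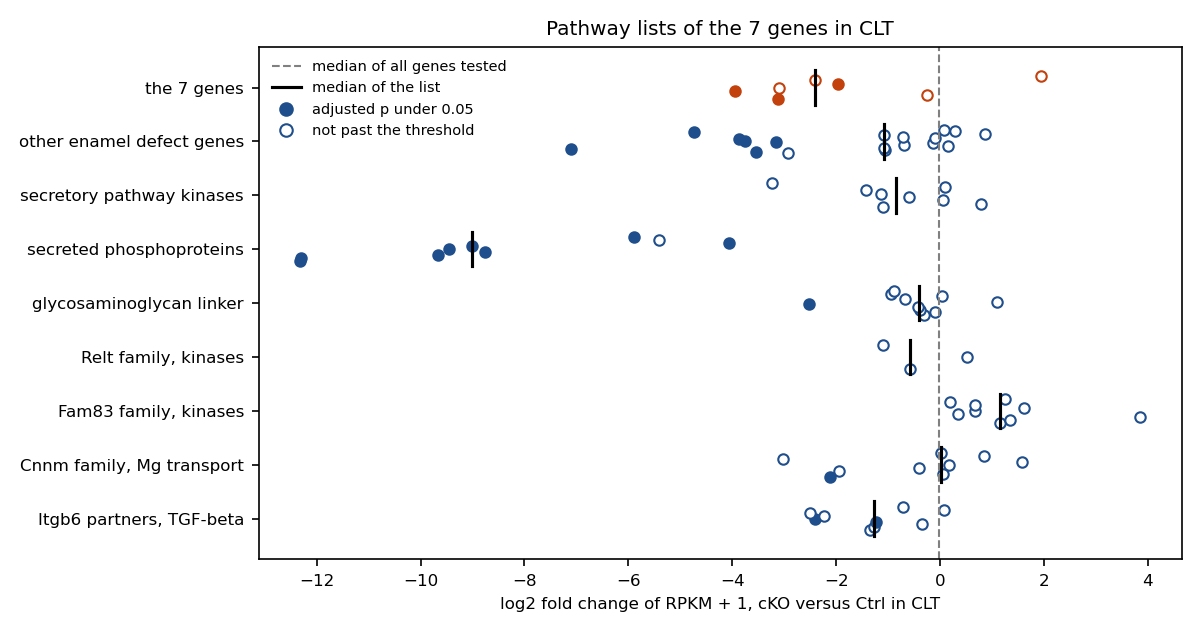
Log2 fold change of RPKM + 1, cKO versus Ctrl in CLT (horizontal axis), for the 7 genes (orange) and the tested genes of 8 pathway lists (blue); filled points had an adjusted p under 0.05, short lines are list medians and the dashed line is the median of all genes tested. The secreted phosphoproteins lie lowest, with a median of -9.00, and all 9 tested genes of the *Fam83* list lie above 0.

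The *Fam83* list, by contrast, lay wholly above 0. None of its 9 tested genes passed in CLT (0 by limma and 0 by voom, with 5 at an unadjusted p under 0.05). All 9 were also above 0 after median-of-ratios scaling, and the median of the list was 1.15, beside -0.01 over all genes tested. *Fam83c* had the highest value (3.85 ± 1.28, adjusted p = 0.12): it read 11.2 and 0 RPKM in the Ctrl libraries against 46.5 and 52.8 in the cKO libraries. *Fam83g* read 22.7 and 6.48 against 36.7 and 42.6. Like *Fam83h*, both were higher in Ctrl CLT library 1 than in library 2. Within the cKO mice, 7 of the 9 rose from CLH to CLT and 1 fell, beside 28.9% and 45.1% of all tested genes, with log2 fold changes of 5.22 for *Fam83c*, 2.54 for *Fam83g*, 1.64 for *Fam83b* and 1.44 for *Fam83a*. *Csnk1d*, a casein kinase gene, had the lowest value in CLT (0.19).

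Of the relatives and partner kinases of RELT, 0 of 3 tested passed in CLT by limma and 0 by voom, with 2 at an unadjusted p under 0.05, and values ran from -1.09 for the kinase gene *Stk39* to 0.51 for *Oxsr1*, whose kinase binds RELT, with *Rell1* at -0.57. In the *Cnnm* list, 1 of 9 fell and 0 rose by limma and 0 were called by voom, with a median of 0.01. This was *Cnnm2*, a relative of *Cnnm4*, at -2.11 ± 0.17 (limma, adjusted p = 0.037). The channel gene *Trpm7* was the lowest (-3.03 ± 0.41, adjusted p = 0.060) and its relative *Trpm6* the highest (1.58 ± 0.37, adjusted p = 0.083). In the *Itgb6* list, 2 of 9 fell by limma and 0 were called by voom, with a median of -1.28. *Tgfb1*, the gene of a latent growth factor that the integrin activates, changed by -2.41 ± 0.17 (limma, adjusted p = 0.031), and *Itgb5*, named after its value was seen, by -1.23 (adjusted p = 0.0495). *Tgfb3* was the lowest (-2.50, adjusted p = 0.064) and *Ltbp1* the highest (0.08). *Itgav*, the partner chain of *Itgb6*, had -1.35 ± 0.18 (adjusted p = 0.060), from 16.8 and 21.3 RPKM to 6.93 and 6.68. Without Ctrl CLT library 1, 5 of 9 genes of the *Cnnm* list were lower and 2 higher, and 8 of 9 of the *Itgb6* list were lower, beside the same 38.1% lower and 31.4% higher of all tested genes.

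The genes most like each member over the 8 libraries, by Pearson r of log2(RPKM + 1), were named as a description. Beside *Fam20a* and *Fam20c* stood *B930041F14Rik* and *Arsb* (r = 0.998 each) and *Ildr2* and *Crtac1* (0.997 each). *Fam83h* was followed most closely by *G6pdx*, *St14* and *2310042D19Rik* (0.998 each), and *Cnnm4* by *St3gal6* (0.998), *Slc20a2* (0.994) and *Ctso* (0.993). *St14*, the gene of the membrane protease matriptase, read 36.2 and 15.8 RPKM in CLT of Ctrl mice against 70.7 and 78.0 in that of cKO mice. The phosphate transporter gene *Slc20a2* read 88.8 and 149 against 31.6 and 33.8. For *Relt* these genes were *Klc4* (0.995), *Ndrg1* (0.992) and *Aplp1* (0.990), for *Itgb6* *A330050F15Rik* (0.987), *Tor3a* (0.985) and *Prr5l* (0.984), and for *Fam20b* *Plek2* (0.985), *Tspan14* (0.983) and *Ptprk* (0.970).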

How the data were processed

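RNA was sequenced from 8 libraries, 2 in each of 4 groups named in the sample labels. The processing notes name FastQC 0.72, Trim Galore 0.4.3.1, STAR 2.6.0b-1 and featureCounts 1.6.3 with mm10. The authors deposited RPKM per gene, so that a count test was not the main one. The annotation and the strand setting are not given in the sources used here. Multiplied by gene length, the values checked were whole numbers of reads times a constant of the library in 100.0% of cases (tolerance 0.01 read). These were 11056 to 12627 values a library, above 0 and of lower read counts, and values of higher counts were not checked. The constants gave totals and reads, and 82.2% to 85.6% of those reads lay on genes. Floors and read counts cover counting error only.

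log2(RPKM + 1) was tested with limma 3.58.1 (lmFit, eBayes with trend) in R 4.3.3, two-sided, with Benjamini-Hochberg adjustment over 14148 genes and a threshold of 0.05, within the 4 libraries of a comparison or over 8 for the interaction. The fold change on this scale understates that of low genes. With 2 against 2 libraries, exact permutation p-values start at 0.333. Scripts were tested on 3 simulated draws with 200 genes changed in cKO CLT. For cKO against Ctrl in CLT, 197 to 200 of them were recovered, with 23 to 27 false calls. Where no gene was changed, 6 to 12 genes were called between genotypes in CLH and 6 to 29 between the Ctrl tissues. The simulation gave all libraries the same spread, unlike the data, where the Ctrl CLT pair was the least alike. Alternatives were a pseudocount of 0.1, no filter, median-of-ratios scaling, a replicate block, voom, 1 fit of all libraries, and each library left out. The genes, the 8 pathway lists and the 11 marker lists were chosen with earlier results of these data known. Named genes were the 7, and from each list up to 4 with the largest change past the threshold in any comparison and the highest and lowest in CLT. Of 84 list entries, 1 was not in the table, and 1 gene was in 2 lists. The values of 2 listed genes are not reported here. ChIP-seq and arrays were not analysed here. 0 columns were left unused.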

Additional observations from a re-analysis of the deposited data

Results flagged for a closer look

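The cKO effect on 5 of the 7 genes differed between CLT and CLH by the interaction test over all 8 libraries (limma, adjusted over 14148 genes). All 5 had the lower effect in CLT, beside 9.58% of the tested genes on the lower side and 8.05% on the higher. The calls of *Relt*, *Cnnm4* and *Itgb6* depended on single libraries, as given above. The difference, CLT minus CLH on the log2(RPKM + 1) scale, was -4.27 for *Fam20c* (adjusted p = 0.0030), -3.35 for *Fam20a* (0.0050), -2.11 for *Itgb6* (0.0063), -2.55 for *Cnnm4* (0.024) and -3.61 for *Relt* (0.026). In each case both cKO CLT libraries lay below all 6 other libraries, and the CLH libraries of the 2 genotypes differed by 1.45-fold at most in their means.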

How the results depend on the processing

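In CLT, 3 of the 7 genes were called, 0 with no filter on low values, 0 by voom, 6 with the replicate block and 6 with all 8 libraries in 1 fit, and 0 to 7 with each library left out. In all these settings the direction of each of the 7 genes in CLT was kept. *Fam20a* lost its call after median-of-ratios scaling (adjusted p = 0.0501). For CLT against CLH in Ctrl, 0 of 7 became 1 (*Itgb6*) with all 8 libraries in 1 fit and 0 to 6 with each library left out. The interaction gave 5 of 7, and 2 to 7 with each library left out. CLH stayed at 0 of 7 and CLT against CLH in cKO at 6 of 7 in every setting tried. Signs turned for *Itgb6* in CLH (-0.02 without Ctrl CLH library 2, 0.32 without library 1), *Fam20b* in CLH (-0.00021 without cKO CLH library 1, 0.09 without library 2), *Fam83h* (-0.15 without Ctrl CLT library 1, 1.29 without library 2) and *Cnnm4* (-0.06 without library 2, 1.13 without library 1) between the Ctrl tissues, and *Fam20b* between the cKO tissues (0.14 after median-of-ratios scaling). Over all genes, the 248 calls in CLT became 3 with no filter, 18 by voom, 1744 with the block, 6183 in the fit of all 8 and 11 to 9838 with each library left out. For CLT against CLH in Ctrl, 1 call became 2 with a pseudocount of 0.1, 0 with no filter or voom, 5 with the block, 837 in the fit of all 8 and 0 to 7537 with each library left out. The 2494 interaction calls became 1448 with the block and 198 to 8932 with each library left out. The labels do not say what a replicate number marks, and libraries of the same number deviated together with r from -0.19 to 0.31 between groups, so the block is given here only. The cause of these shifts was not tested.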
